A study of Mus musculus with 4 samples.

Results

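The 9 genes described here belong to the T helper 1 (Th1) programme and to the chemokine axis of the receptor CXCR3. They are the cytokine gene Ifng, the regulators Tbx21 and Stat4, the receptor genes Cxcr3, Il18r1 and Il18rap, and the CXCR3 ligand genes Cxcl9, Cxcl10 and Cxcl11. The genes were chosen by name, and all 9 were found among the 48526 gene identifiers of the deposited table. Messenger RNA came from mononuclear cells of the gut lamina propria, the tissue layer below the epithelium, after a transfer of CD4 T cells into mice. For 2 samples the donor cells lacked Hobit and Blimp-1, related repressors that support residency of lymphocytes in tissues, and the colitis is labelled mild (called DKO, for double knockout). For the other 2 samples the donor cells were wild type and the colitis is labelled pronounced (called wild type). These genotypes describe the donor T cells, not the recipients. The sources used here do not give the strain or age of the recipients or which lymphocytes of their own they had. Each group has 2 biological replicates that are not stated to come from separate animals, and p-values therefore measure spread between samples that may be technical.

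Th1 cells form when interleukin 12 acts through STAT4 and interferon gamma acts on the same cells to induce T-bet, the product of Tbx21. They secrete interferon gamma, carry the interleukin 18 receptor, and express CXCR3. Macrophages, dendritic cells and stromal cells exposed to interferon gamma produce the CXCR3 ligands, which attract further CXCR3-bearing cells. In T cell transfer colitis interferon gamma is a major cytokine of the inflamed mucosa. Natural killer cells, CD8 T cells and group 1 innate lymphoid cells use much of the same programme, so a tissue sample does not assign these transcripts to CD4 cells.

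Cxcl9 was higher in the DKO samples, which the labels describe as having the milder colitis, by a fold of 1.28. It was 1 of the 9 genes to pass the test, and 0 were lower at the same threshold (limma with Benjamini-Hochberg adjustment over 13528 genes, adjusted p under 0.05). At an unadjusted p under 0.05, 3 were higher and 1 was lower. Over all genes tested, 9.92% were higher and 4.85% were lower in DKO, so the count among these 9 is close to the background. Groups did not overlap, with DKO higher, for 5 of the 9 genes, against 25.0% of all genes tested, and with DKO lower for 1 of the 9, against 30.3%. The median difference of the 9 genes was 0.13 on the log2 scale, against -0.022 over all genes tested.

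**Figure D1:**
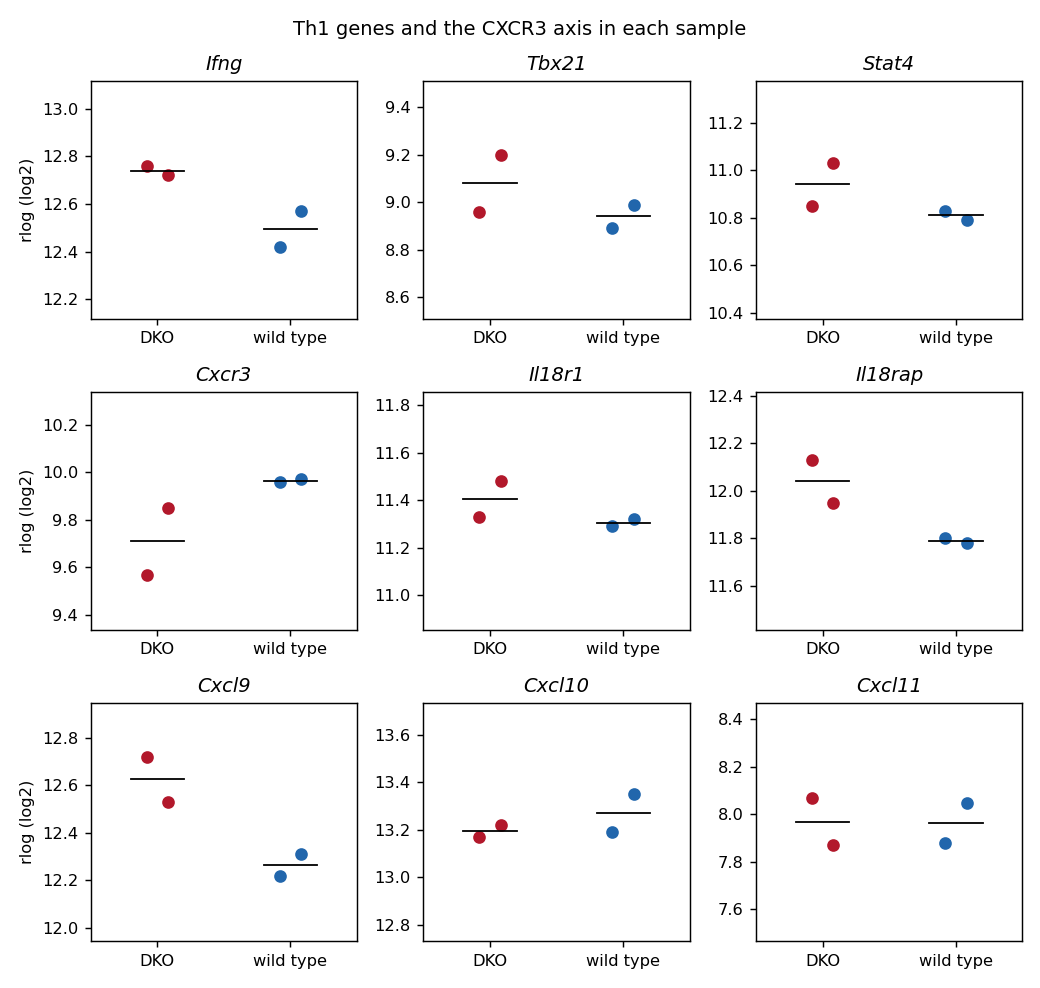
Regularized log2 expression (rlog, y axis, each panel spanning 1 log2 unit) of the 9 genes in the 2 DKO and 2 wild-type samples. Points are samples and bars are group means. Both DKO samples lie above both wild-type samples for Ifng, Stat4, Il18r1, Il18rap and Cxcl9, and below them for Cxcr3.

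Values are regularized log2 expression (rlog), in which differences are pulled towards 0, most where reads are few. The depth of each sample is unknown. In samples of mixed cells, fewer cells of a type and less RNA per cell cannot be told apart. Levels of several marker lists differed between the groups, where 9.92% of all genes tested were higher and 4.85% lower in DKO. All 9 neutrophil markers and 7 of 8 macrophage markers were lower in DKO, and all 7 fibroblast and muscle markers and all 6 endothelial markers were higher. Without wild-type replicate 1 the macrophage count was 4, and with no filter on low values these counts were 0, 0, 1 and 2. Of 10 T cell markers 1 was lower and 0 were higher (limma, with 3 lower and 0 higher at an unadjusted p under 0.05), and 3 were lower without DKO replicate 2 and 0 without wild-type replicate 1 or 2. The leukocyte marker Ptprc lay at 14.20 and 14.02 in DKO and at 14.22 and 14.26 in wild type. Of 5 B and plasma cell markers, Pax5 was listed at 0 in all 4 samples, Cd79a and Ms4a1 lay below 0 on the rlog scale, and Jchain lay between 2.04 and 2.52. The fifth, Cd79b, was tested and lay at 5.77 and 5.76 in DKO and at 5.73 and 5.71 in wild type.

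Ifng encodes interferon gamma, the defining Th1 cytokine, and lies on chromosome 10 from 118441046 to 118445892 (GRCm38, as are all positions here). Its rlog was 12.76 and 12.72 in the DKO samples and 12.42 and 12.57 in the wild-type samples. Both DKO samples were higher than both wild-type samples, and the DKO pair lay closer together. The means were 12.74 ± 0.0264 in DKO and 12.50 ± 0.107 in wild type (SD, n = 2 each). The difference was 0.24 (SE 0.0912, adjusted p = 0.11 in limma) and did not pass, with a 95% interval of 0.04 to 0.44 before adjustment. This corresponds to a fold of 1.18, with an interval of 1.03 to 1.36, on the rlog scale. With quantile normalization Ifng passed, at a difference of 0.34 (adjusted p = 0.0279). Leaving out wild-type replicate 1 gave 0.17.

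Tbx21 encodes T-bet, the T-box factor that directs the Th1 programme, and lies on chromosome 11 from 97098071 to 97115331. Its rlog was 8.96 and 9.20 in DKO and 8.89 and 8.99 in wild type, so the groups overlapped. The difference was 0.14 (SE 0.0993, adjusted p = 0.414 in limma), with an interval of -0.08 to 0.36. It was 0.023 without DKO replicate 2, 0.095 without wild-type replicate 1 and 0.26 without DKO replicate 1.

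Stat4 encodes the transcription factor that interleukin 12 activates, and lies on chromosome 1 from 51987148 to 52107189. It stood at 10.85 and 11.03 in DKO and at 10.83 and 10.79 in wild type. The groups did not overlap, but DKO replicate 1 lay just above the upper wild-type sample. The difference was 0.13 (SE 0.0853, adjusted p = 0.377 in limma), with an interval of -0.06 to 0.32. It was 0.042 without DKO replicate 2 and 0.22 without DKO replicate 1.

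Il18r1 and Il18rap encode the ligand-binding chain and the accessory chain of the interleukin 18 receptor, through which interleukin 18 adds to interferon gamma production. They are neighbours on the same strand of chromosome 1, at 40465552 to 40500854 and at 40515362 to 40551705. Il18rap stood at 12.13 and 11.95 in DKO and at 11.80 and 11.78 in wild type. Both DKO samples were higher, and the wild-type pair differed little. The difference was 0.25 (SE 0.0886, fold 1.19), the second smallest p among the 9 genes, and its adjusted p of 0.0947 in limma did not pass. It passed without DKO replicate 2 (0.34, adjusted p = 0.00833) and with quantile normalization (0.34, adjusted p = 0.0402), and was 0.16 without DKO replicate 1. Il18r1 stood at 11.33 and 11.48 in DKO and at 11.29 and 11.32 in wild type. Its DKO replicate 1 came close to the upper wild-type sample. The difference of 0.10 (SE 0.0833, adjusted p = 0.518 in limma) had an interval of -0.09 to 0.28, and was 0.024 without DKO replicate 2 and 0.17 without DKO replicate 1. Whether the difference of the accessory chain exceeds that of the ligand-binding chain was not tested.

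Cxcr3 encodes the receptor for CXCL9, CXCL10 and CXCL11 on effector T cells, and lies on the X chromosome from 101731535 to 101734269. Its rlog was 9.57 and 9.85 in DKO and 9.96 and 9.97 in wild type. It was the 1 gene of the 9 with both DKO samples below both wild-type samples. The wild-type samples were nearly equal, and DKO replicate 1 lay lowest. The difference of -0.26 (SE 0.098, fold 0.835) had an adjusted p of 0.111 in limma and did not pass, with an interval of -0.48 to -0.04 before adjustment. The size of the difference rested on DKO replicate 1. Without DKO replicate 1 it was -0.12 (adjusted p = 0.505), and without DKO replicate 2 it was -0.40 and passed (adjusted p = 0.00217).

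The T cell receptor complex gives a level of T cell RNA against which these genes can be read within a sample. The mean rlog of Cd3d, Cd3e and Cd3g, invariant chains of that complex, was 11.22 and 11.38 in DKO and 11.41 and 11.60 in wild type. Relative to that mean, Cxcr3 lay at -1.65 and -1.53 in DKO and at -1.45 and -1.63 in wild type, so the groups overlapped and their means differed by -0.05. Ifng lay 1.54 and 1.34 above it in DKO and 1.01 and 0.97 above it in wild type, a difference of 0.45. The same difference was 0.45 for Il18rap, 0.35 for Tbx21, 0.34 for Stat4 and 0.30 for Il18r1, each with both DKO samples above both wild-type samples. No test was made of these values, and the Cd3 level itself differed by -0.21. They depend on the reference chosen, as does the overlap of the Cxcr3 groups. Differences of the 10 T cell markers ran from -0.28 to -0.06, with a median of -0.13. A reference that differed less, such as Cd4 (-0.09) or Lck (-0.06), would leave more of the Cxcr3 difference and smaller differences for the others.

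**Figure D2:**
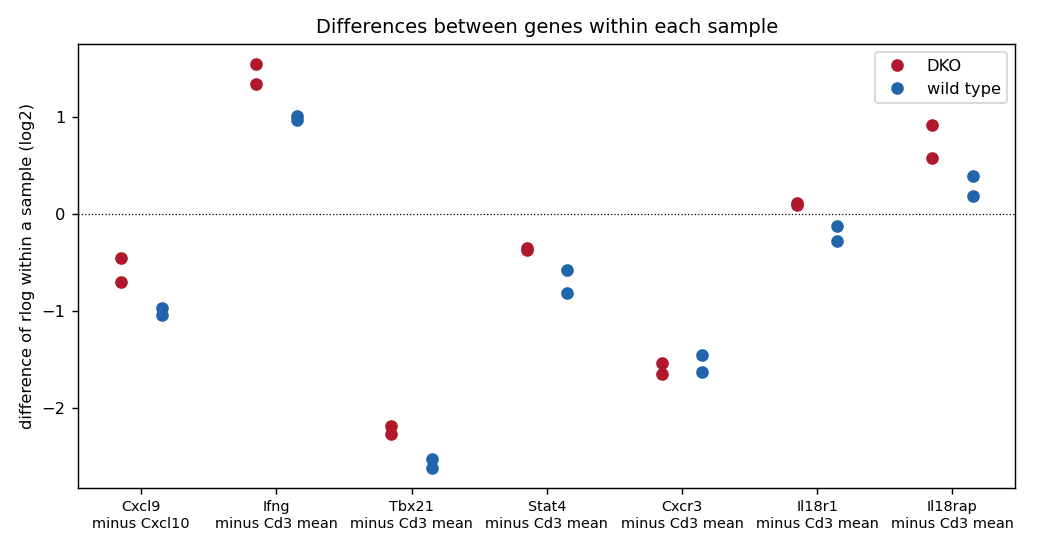
Differences of rlog between genes within each sample (y axis, log2), for Cxcl9 relative to Cxcl10 and for 6 Th1 genes relative to the mean of Cd3d, Cd3e and Cd3g. Points are the 2 DKO and 2 wild-type samples. The groups separate for every quantity shown except Cxcr3, whose 4 values lie between -1.65 and -1.45. Whether the Cxcr3 groups overlap depends on the reference chosen.

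Other lymphocytes that use the Th1 programme were represented. Of 10 markers of natural killer cells and group 1 innate lymphoid cells, 5 were higher in DKO and 0 were lower, with a median difference of 0.31, against -0.022 over all genes tested, of which 9.92% were higher. The count was 1 without wild-type replicate 1, 3 without wild-type replicate 2 or DKO replicate 1, 2 with quantile normalization and 0 with no filter on low values. Their summed level was 13.40 and 13.53 in DKO and 13.07 and 13.11 in wild type, on a log2 scale. Most of that sum came from 1 gene, Gzma, at 12.69 and 13.01 in DKO and at 12.45 and 12.47 in wild type. The sum is therefore not a level of these cells as such. The defining receptor gene Ncr1 was low, at 6.78 and 6.29 in DKO and 6.25 and 6.33 in wild type, and its difference of 0.24 did not pass (adjusted p = 0.358 in limma). The summed level of the CD8 coreceptor genes Cd8a and Cd8b1 was 8.52 and 10.06 in DKO and 8.45 and 9.11 in wild type, with neither gene past the threshold. Both genes were highest in DKO replicate 2. Cd8b1 stood at 6.04 and 8.09 in DKO and at 6.04 and 6.10 in wild type. Cd8a stood at 8.23 and 9.64 in DKO and at 8.15 and 8.92 in wild type. The part of these cells in the values of Ifng, Tbx21, Stat4 and the interleukin 18 receptor genes was not tested.

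The ligand genes Cxcl9, Cxcl10 and Cxcl11 lie beside each other on the minus strand of chromosome 5. Cxcl9 spans 92321347 to 92328079, Cxcl10 spans 92346638 to 92348889 and Cxcl11 spans 92359544 to 92365485. Cxcl9 responds mainly to interferon gamma, whereas Cxcl10 also responds to type I interferon and other inflammatory signals. The 250 bases before the transcription starts of Cxcl9 and Cxcl10, from RefSeq on GRCm38.p6, are shown because these neighbours differed in their values. They lie at chr5:92328080-92328329 and chr5:92348890-92349139 on the minus strand and are written 5′ to 3′ along each gene. Capitals mark exact matches to GAAANNGAA, a shortened form of the interferon-stimulated response element (ISRE), where N is any base. A match to these letters need not be a full element. The base that follows the match is g in Cxcl9 and a in Cxcl10.
Cxcl9: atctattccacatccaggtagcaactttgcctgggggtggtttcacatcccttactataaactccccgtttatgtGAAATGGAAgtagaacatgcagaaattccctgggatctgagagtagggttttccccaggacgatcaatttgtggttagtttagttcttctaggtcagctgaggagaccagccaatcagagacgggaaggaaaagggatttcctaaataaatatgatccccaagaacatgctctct
Cxcl10: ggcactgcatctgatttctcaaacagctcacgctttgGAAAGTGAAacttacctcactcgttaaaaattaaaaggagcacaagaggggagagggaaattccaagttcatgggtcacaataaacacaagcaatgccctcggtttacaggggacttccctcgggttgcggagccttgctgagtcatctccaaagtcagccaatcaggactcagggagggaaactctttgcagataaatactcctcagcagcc

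Each window held 1 match, beginning 175 bases before the Cxcl9 start and 213 bases before the Cxcl10 start. Both strands were searched, and 7.13% of 32851 mouse promoter windows of this length held a match. RefSeq windows were found for 8 of the 9 genes, 11 windows in all, and not for Cxcl11. The ISRE letters were in 3 of the 11, the third being 1 of the windows of Stat4. The STAT motif TTCNNNGAA was in 2 of the 11, for Ifng and for 1 window of Il18r1, and in 7.02% of all windows. The T-box motif TCACACCT was in 0 of the 11 and in 1.12% of all windows. No matches of different motifs overlapped. A match describes the letters and not binding.

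Cxcl9 stood at 12.72 and 12.53 in DKO and at 12.22 and 12.31 in wild type. Both DKO samples were above both wild-type samples, and the gap between the groups was larger than the spread within either. The means were 12.62 ± 0.14 in DKO and 12.26 ± 0.0653 in wild type (SD, n = 2 each), and the difference was 0.36 (SE 0.0955, adjusted p = 0.0266 in limma). The fold of 1.28 had a 95% interval of 1.11 to 1.49. Cxcl9 ranked 1600 of 13528 genes by p. The call ended without DKO replicate 1 (0.26, adjusted p = 0.0686), without wild-type replicate 1 (0.31, adjusted p = 0.196), without wild-type replicate 2 (0.41, adjusted p = 0.0792) and with no filter on low values (adjusted p = 0.185).

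Cxcl10 stood at 13.17 and 13.22 in DKO and at 13.19 and 13.35 in wild type. Its groups overlapped, and the difference of -0.08 (SE 0.0986, adjusted p = 0.696 in limma) had an interval of -0.29 to 0.14. Within each sample, Cxcl9 minus Cxcl10 on the rlog scale was -0.45 and -0.70 in DKO and -0.97 and -1.04 in wild type. Both DKO samples were above both wild-type samples, and the means differed by 0.44, which was not tested.

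Cxcl11 is annotated as a polymorphic pseudogene in this reference, which is of the C57BL/6 strain, where its reading frame is known to be disrupted. It stood at 8.07 and 7.87 in DKO and at 7.88 and 8.05 in wild type. The groups overlapped fully, and the difference had an interval of -0.24 to 0.25 (adjusted p = 0.99 in limma). Exons of Cxcl10 and Cxcl11 lie within the span of Art3, an ADP-ribosyltransferase gene on the other strand. Whether they meet exons of Art3 was not checked. Art3 rose by 0.85 (SE 0.113, adjusted p = 0.000398 in limma). The libraries were stranded, but the sources used here do not say whether reads were counted by strand. Art3 itself was low, at 6.16 and 6.28 in DKO and at 5.34 and 5.39 in wild type.

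Marker RNA of cells known to make these ligands differed in both directions. The summed level of 8 macrophage markers was 14.21 and 14.43 in DKO and 14.79 and 14.76 in wild type. That of 6 endothelial markers was 12.20 and 12.30 in DKO and 11.42 and 11.22 in wild type. That of 7 fibroblast and muscle markers was 15.62 and 15.45 in DKO and 14.59 and 14.45 in wild type. Macrophage markers were lower and stromal markers higher in the samples where Cxcl9 was higher. Of 7 dendritic cell markers 1 rose, the transcription factor gene Zbtb46 (0.30, adjusted p = 0.0453), and it did not pass without DKO replicate 2 or without wild-type replicate 1 or 2. Of those 7 markers, 5 had both DKO samples above both wild-type samples and 0 had them below, against 25.0% and 30.3% of all genes tested. Their median difference was 0.23. The part of these cells in the Cxcl9 difference was not tested.

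**Figure D3:**
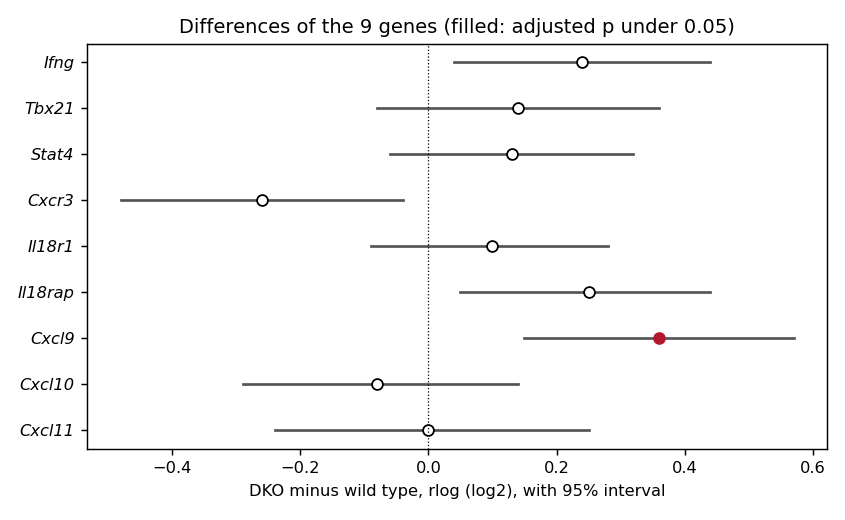
Difference of each of the 9 genes, DKO minus wild type, in rlog (x axis, log2), with its 95% interval from the moderated fit before adjustment. The filled point is Cxcl9, past the threshold at 0.36. The intervals of Ifng, Il18rap and Cxcr3 exclude 0 but these genes did not pass after adjustment.

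Levels of different genes were compared per length, as rlog minus log2 of the exonic length in kilobases. Ifng and Cxcl10 were highest, at means of 12.37 and 12.02 in DKO and of 12.12 and 12.10 in wild type, and their sample values overlapped in wild type. In DKO both values of Ifng, 12.39 and 12.35, were above both of Cxcl10, 12.00 and 12.05. Ifng was above 98.9% of the genes tested on this scale, and Cxcl10 above 98.6%. Cxcl9 followed, at means of 11.03 in DKO and 10.68 in wild type, apart from the genes above and below it. Il18rap, Il18r1, Stat4 and Cxcr3 had sample values between 8.78 and 9.37 that overlapped from one gene to the next. Cxcr3 was last of those 4 in DKO, at a mean of 8.92, and first in wild type, at 9.18. Tbx21 had means of 7.77 in DKO and 7.62 in wild type, and Cxcl11 was lowest at 6.05 in DKO and 6.04 in wild type, above 47.6% of genes tested. The lengths are unions of annotated exons, and the annotation behind the counts may differ.

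Genes upstream of the Th1 programme went both ways. Among all genes tested 9.92% rose and 4.85% fell, the shares to set beside this and the following lists. Of 11 genes of interleukin 12 and interleukin 27 signalling 3 rose and 1 fell in limma, with a median difference of 0.02. Without DKO replicate 2, 3 rose and 4 fell, and without wild-type replicate 1, 2 rose and 2 fell. Without wild-type replicate 2, 2 rose and 0 fell, and without DKO replicate 1, 4 rose and 0 fell. With no filter on low values, 2 of the 28 called genes of this and the following lists were still called, Il6st and Irgm2. Il12rb2, the signalling chain of the interleukin 12 receptor that marks Th1 cells, stood at 11.40 and 11.53 in DKO and at 11.17 and 11.10 in wild type. It rose by 0.33 (SE 0.0827, adjusted p = 0.0205). The call ended without wild-type replicate 1 (adjusted p = 0.0707) and without wild-type replicate 2 (adjusted p = 0.186). Il6st, the shared signal chain gp130, rose by 0.91 and Il12b, the p40 subunit, by 0.68, while Il12a, the p35 subunit, fell by 0.51. Without wild-type replicate 1 Il12b was at 0.45, and Il12a did not pass without DKO replicate 1 (-0.32) or wild-type replicate 2.

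Of 11 genes of the interleukin 18 axis 1 fell and 0 rose (limma, with 1 lower and 0 higher at an unadjusted p under 0.05). Among all genes tested 4.85% were lower and 9.92% higher. Both DKO samples were below both wild-type samples for 7 of the 11 and above them for 0. Over all genes tested these shares were 30.3% and 25.0%. Il18bp, a secreted antagonist of interleukin 18 that interferon gamma induces, stood at 9.80 and 10.01 in DKO and at 10.22 and 10.27 in wild type. Both DKO samples were lower. It fell by 0.34 (SE 0.0897, adjusted p = 0.0266 in limma), and the call ended without DKO replicate 1 (-0.23), wild-type replicate 1 or wild-type replicate 2. Il18 itself stood at 7.18 and 7.03 in DKO and at 7.18 and 7.27 in wild type (adjusted p = 0.535).

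Of 12 further Th1 regulators, 7 had both DKO samples below both wild-type samples and 1 had them above, against 30.3% and 25.0% of all genes tested. Of these 12, 0 passed in limma, with 1 higher and 2 lower at an unadjusted p under 0.05. With a robust variance estimate, and likewise without DKO replicate 2, 1 was higher and 2 were lower. Leaving out another sample called 1 or 2 of them. The smallest p were those of Twist1, a repressor in repeatedly activated Th1 cells that fibroblasts also express (0.42, adjusted p = 0.0515), and Runx3, a partner of T-bet (-0.30, adjusted p = 0.0551). Of 18 other Th1 effector and surface genes 2 fell and 0 rose (limma, with 7 lower and 3 higher at an unadjusted p under 0.05). Without DKO replicate 2, 5 fell and 2 rose, and without DKO replicate 1, 4 fell and 1 rose. Without wild-type replicate 2, 1 fell. Ly6c2, which monocytes also express, fell by 0.85, beside a list of 5 monocyte markers of which 2 fell and 1 rose, with a median of -0.30. These ran from -1.50 for Chil3 to 0.69 for Vcan. Ccl3, an inflammatory chemokine, fell by 0.46, a call that ended without wild-type replicate 2 (adjusted p = 0.0542). The median of these 18 genes was -0.14, against -0.022 over all genes tested, of which 9.92% were higher and 4.85% lower. Of the 18, 8 had both DKO samples below both wild-type samples and 3 had them above, against 30.3% and 25.0%.

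Genes that interferon gamma acts on or through did not move one way. Among all genes tested 9.92% were higher and 4.85% lower in DKO. Of 10 genes of its receptor and feedback, 7 had both DKO samples below both wild-type samples and 0 had them above. Over all genes tested these shares were 30.3% and 25.0%. Of the 10, 1 fell and 0 rose (limma, with 3 lower and 0 higher at an unadjusted p under 0.05). In the fit without DKO replicate 1, and in that without DKO replicate 2, 2 fell. In those without 1 wild-type sample 0 did. Ifngr2, the signalling chain of the receptor, stood at 9.38 and 9.31 in DKO and at 9.61 and 9.65 in wild type. It fell by 0.29 (SE 0.0809, adjusted p = 0.0361 in limma), and did not pass without DKO replicate 2 or without wild-type replicate 1 or 2. Of 30 interferon gamma targets, 9 had both DKO samples below both wild-type samples and 12 had them above. Of the 30, 5 rose and 4 fell, with a median of 0.06. The counts were 9 and 2 with quantile normalization, 9 and 5 without DKO replicate 2, 3 and 1 without wild-type replicate 1, and 4 and 2 without wild-type replicate 2. Rises were led by Irgm2 (0.79) and Tgtp2 (0.60), which encode GTPases of cell-autonomous defence, and by Ido1 (0.56), the tryptophan-degrading enzyme. Tgtp2 and Tgtp1 are close copies, so their reads may be split between them and both values are uncertain.

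The 4 targets that fell are known from macrophages and other myeloid cells. Fcgr1, the high-affinity Fc gamma receptor, fell by 0.48, a call that ended without wild-type replicate 1 (adjusted p = 0.0616). Nos2, the inducible nitric oxide synthase, fell by 0.74, or by 0.43 without DKO replicate 1, and its call ended under robust variance estimation (adjusted p = 0.156). Acod1, which makes itaconate, fell by 0.45, a call that ended without wild-type replicate 1 or 2 and with quantile normalization (-0.28). Il18bp is the fourth. These falls stood beside medians of -0.46 over the 8 macrophage markers, -1.48 over the 9 neutrophil markers and -0.30 over the 5 monocyte markers. The rises stood beside medians of 1.07 for fibroblast and muscle markers and 1.36 for endothelial markers, and the part of these cells was not tested.

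**Figure D4:**
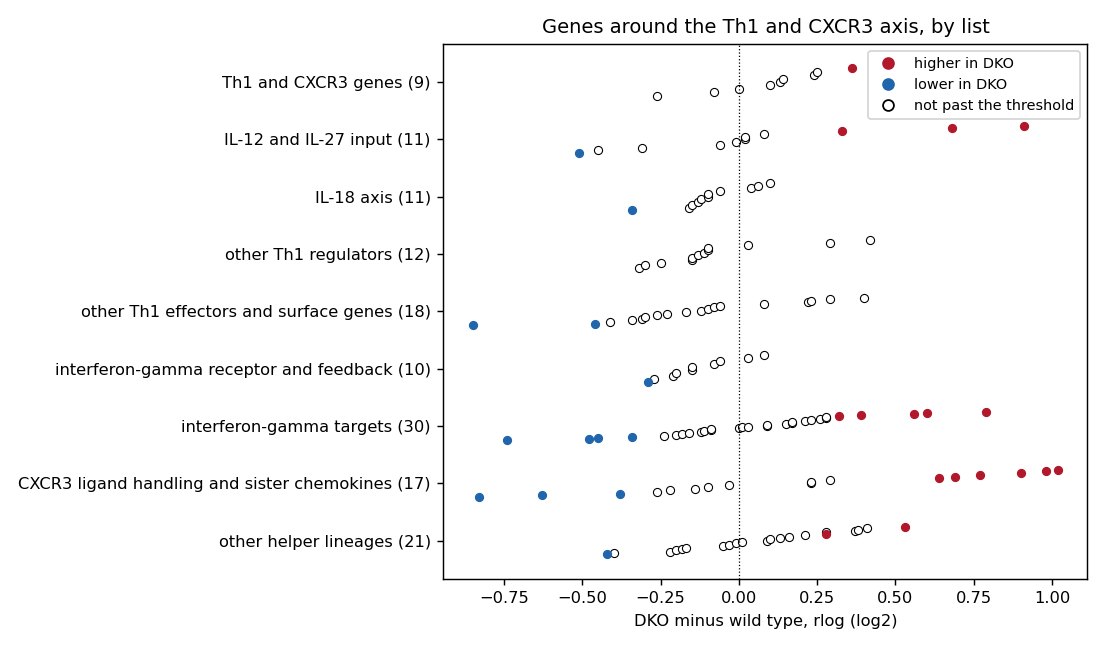
Differences, DKO minus wild type, in rlog (x axis, log2) of the 9 genes and of 8 lists around them (rows, number of genes tested in parentheses). Each point is a gene, red where higher and blue where lower past the threshold, and open otherwise. The 9 genes span -0.26 to 0.36, while genes of ligand handling and sister chemokines span -0.83 to 1.02.

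Among 17 tested genes of ligand handling and sister chemokines 6 rose and 3 fell, against 9.92% and 4.85% of all genes tested. Their median difference was 0.23. Without DKO replicate 2, 7 rose and 5 fell, and without wild-type replicate 2, 7 rose and 1 fell. Cxcl12, a stromal chemokine, rose by 1.02. All 4 genes of atypical chemokine receptors, which take up chemokines without signalling through G proteins, rose, Ackr1 by 0.98, Ackr4 by 0.90, Ackr2 by 0.69 and Ackr3 by 0.64. All 4 also passed in each fit without 1 sample. ACKR3 binds CXCL11 as well as CXCL12. Ackr1 marks venules and ACKR4 is of stromal and endothelial cells, and these rises stood beside the higher endothelial markers. The falls were Pf4 (-0.83, or -0.53 without DKO replicate 1), Cxcl2 (-0.63) and Cxcl16 (-0.38), the ligand of CXCR6. Cxcl2 did not pass without wild-type replicate 2, nor Cxcl16 without DKO replicate 1 or without wild-type replicate 1 or 2. Dpp4, the peptidase that trims CXCR3 ligands, stood at 9.05 and 8.91 in DKO and at 8.68 and 8.82 in wild type and did not pass (0.23, adjusted p = 0.149 in limma).

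Of 21 genes of other helper lineages 2 rose and 1 fell, counts close to the shares of 9.92% and 4.85% over all genes tested. Those counts were 6 and 1 without DKO replicate 2, 1 and 3 without DKO replicate 1, 0 and 2 without wild-type replicate 1, and 3 and 0 without wild-type replicate 2. Il5, a type 2 cytokine, rose by 0.53, and Il2ra, the alpha chain of the interleukin 2 receptor, by 0.28. Il10 fell by 0.42 (adjusted p = 0.0491 in limma). Il5 did not pass without DKO replicate 1 (0.30) or without wild-type replicate 1 or 2, Il2ra without wild-type replicate 1 or 2, and Il10 without DKO replicate 1 or wild-type replicate 2 (-0.21). The lineage regulators Gata3 and Foxp3 did not pass (-0.18 and 0.16, adjusted p = 0.273 and 0.77 in limma), as Tbx21 did not.

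The transcripts of the deleted genes do not check the labels here, since other cells express them and the sources used here do not name the deleted parts. Zfp683, which encodes Hobit, stood at 3.29 and 3.38 in DKO and at 3.53 and 3.81 in wild type, under the minimum for testing. Prdm1, which encodes Blimp-1, a factor that represses Ifng and Tbx21 in T cells, stood at 11.37 and 11.43 in DKO and at 11.53 and 11.43 in wild type (-0.08, adjusted p = 0.617 in limma).

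The genes with the nearest pattern over the 4 samples were found by the root mean square difference of rlog, each gene centred on its own mean. For Ifng they were Abat, Plxnb1 and Ttc12, at 0.00959, 0.0112 and 0.0125. For Cxcr3 they were Sf3b5, Bscl2 and Cenpm, at 0.00652, 0.00759 and 0.00836. For Cxcl9 they were Hoxa9, Myo9a and Fhl2, at 0.013, 0.0154 and 0.0159. For Cxcl10 they were Acy1, Smim11 and Yrdc, at 0.00367, 0.00538 and 0.00549. With 4 samples a near pattern says little, and how many other genes lie nearly as close was not counted. No other member was among the nearest 3 of any of these genes.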

How the data were processed

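Stranded mRNA libraries were sequenced, per the labels' protocols. The values are log2 values (rlog, the regularized log2 of DESeq2), deposited by the authors in 1 table. The submitters' processing notes name STAR 2.5.4a, BWA 0.7.14-r1136, Subread 1.5.2 with featureCounts, cutadapt 1.9.1, bcl2fastq 2.17.1.14, DESeq2 and GRCm38. Their roles and settings are not stated in the labels. The table has 2 columns that match no labelled sample and were not used, though they may have entered the shrinkage. Counts were not analysed here.

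Identifiers were matched to GENCODE M21 on GRCm38 (48058 of 48526 had a symbol). A minimum mean rlog of 4 left 13528 genes, and all genes were tested in 1 fit with limma 3.58.1 in R 4.3.3. The model had group as its only term and a mean-variance trend (8.9 prior and 2 residual degrees of freedom). All p-values are two-sided, adjusted by Benjamini-Hochberg. Python 3.11.15, pandas 2.3.3 and matplotlib 3.10.9 made tables and figures. The fit was tested on simulated data.

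Replicate numbers follow accession order and pair no samples. The 9 genes and the lists were chosen with earlier results of these data known. The text names the 9 genes, Zfp683 and Prdm1, the up to 3 members per list and direction with the smallest p among those past the threshold (the 2 with the smallest p where none passed), and 3 nearest patterns for 4 genes. Art3, Il18, Dpp4, Ackr2, Ackr3, Gata3, Foxp3, Chil3, Ptprc, Ncr1, Vcan and the B cell genes were added after their values were seen. Cd4, Lck, Gzma and Tgtp1 are also named outside that rule. Levels relative to Cd3 were planned for Ifng and Cxcr3, and those of Tbx21, Stat4, Il18r1 and Il18rap were added.

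Alternatives were no filter, a minimum of 6, no variance trend, a robust variance estimate, median centring, quantile normalization, sample weights and leaving out each sample.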

Additional observations from a re-analysis of the deposited data

How the results depend on the processing

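Over 11 alternatives the difference of Cxcl9 ranged from 0.26 to 0.49, that of Ifng from 0.17 to 0.34, that of Il18rap from 0.16 to 0.34 and that of Cxcr3 from -0.40 to -0.12, each keeping its sign. Of the 9 genes, 1 was called higher; with no filter 0 were, with quantile normalization 3 (Cxcl9, Ifng and Il18rap), and in fits without 1 sample 0 to 2. The count called lower was 0, and 0 to 1 in fits without 1 sample (Cxcr3 without DKO replicate 2). The sign turned for a pair of genes near 0. Cxcl10 was at 0.075 with quantile normalization and at -0.16 to 0.006 in fits without 1 sample. Cxcl11 was at -0.007 with median centring, -0.05 with quantile normalization and -0.096 to 0.10 in fits without 1 sample. Over all genes, 1342 were higher and 656 lower. With no filter these were 181 and 25, and 878 were higher with a minimum mean of 6. Without 1 sample, 1008 to 1660 were higher and 324 to 1222 lower, and the remaining sample is there assumed to have the spread of the other group. Of 28 called list genes, 2 (Il6st and Irgm2) were still called with no filter and 13 in every fit without 1 sample. The causes were not tested. No paired analysis was possible because the labels carry no replicate numbers. Depth is unknown, so no limit from counts is given.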
